A study of Mus musculus with 63 samples.

Results

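Gene expression in the left ventricle was compared between 4 Mfn2AA hearts and 3 tet-off hearts of 5-week-old mice, which gave 7 of the 63 RNA-seq libraries of the series. Mfn2AA mice, of the FVB/N strain background, expressed human mitofusin 2 in which alanine replaced 2 residues (T111A and S442A). The tet-off mice were labelled as controls of the same strain background and age. Libraries were assigned by the group and age in their titles. All 7 titles carry the 5-week age prefix and lack the suffix by which other titles name a run in the P1 batch. They are taken here as one library batch. The labels name neither the promoter that drives the transgene nor the sex of the mice, and they do not say whether Mfn2AA hearts also carry the tet-off construct. A tet-off construct is usually a driver that switches on a second transgene in the absence of tetracycline. Each library is called here a heart and given a letter, in the order of the title numbers, A to D for Mfn2AA and A to C for tet-off hearts, and values by library follow that order. Nothing in the labels says outright that each library is a separate animal, so p-values measure the spread between these samples, which may be technical. The other 5-week groups used below were 4 Mfn2wt hearts, which expressed human mitofusin 2 without the mutations, and 4 nontransgenic hearts. At postnatal day 21 (P21), 6 Mfn2AA and 5 tet-off hearts were used.

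Mitofusin 2 sits in the outer mitochondrial membrane and fuses mitochondria. Once the kinase PINK1 has phosphorylated it, mitofusin 2 can bind Parkin, the ubiquitin ligase that marks mitochondria for removal by mitophagy, and the mutated residues are the sites of that phosphorylation. In the weeks after birth the rodent heart replaces its fetal mitochondria, turns to fatty acids as its main fuel, stops dividing its cardiomyocytes and takes up adult contractile isoforms. The comparison at 5 weeks addresses what hearts look like, at the level of transcripts, when they carry a mitofusin 2 that cannot be phosphorylated at these sites.

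The 5-week Mfn2AA hearts differed from tet-off hearts across a large part of the transcriptome. Of 13661 genes tested, 4774 (34.9%) passed an adjusted p of 0.05, 2578 higher (18.9%) and 2196 lower (16.1%), and 2298 (16.8%) of them differed at least 2-fold. The test was edgeR's quasi-likelihood F test with Benjamini-Hochberg adjustment, and genes that passed it are called. Without regard to the test, all 4 Mfn2AA libraries lay above all 3 tet-off libraries in 2733 genes (20.0%) and below them in 2390 (17.5%). The median log2 fold change over all genes tested was 0.01. Leaving out 1 library at a time gave between 3532 and 4792 calls. Mfn2AA hearts differed from nontransgenic hearts in 5450 genes (39.9%) and from Mfn2wt hearts in 5253 (38.5%). Both of these counts share the 4 Mfn2AA libraries with the main one. Tet-off and nontransgenic hearts differed from each other in 16 genes (0.117%).

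**Figure D1:**
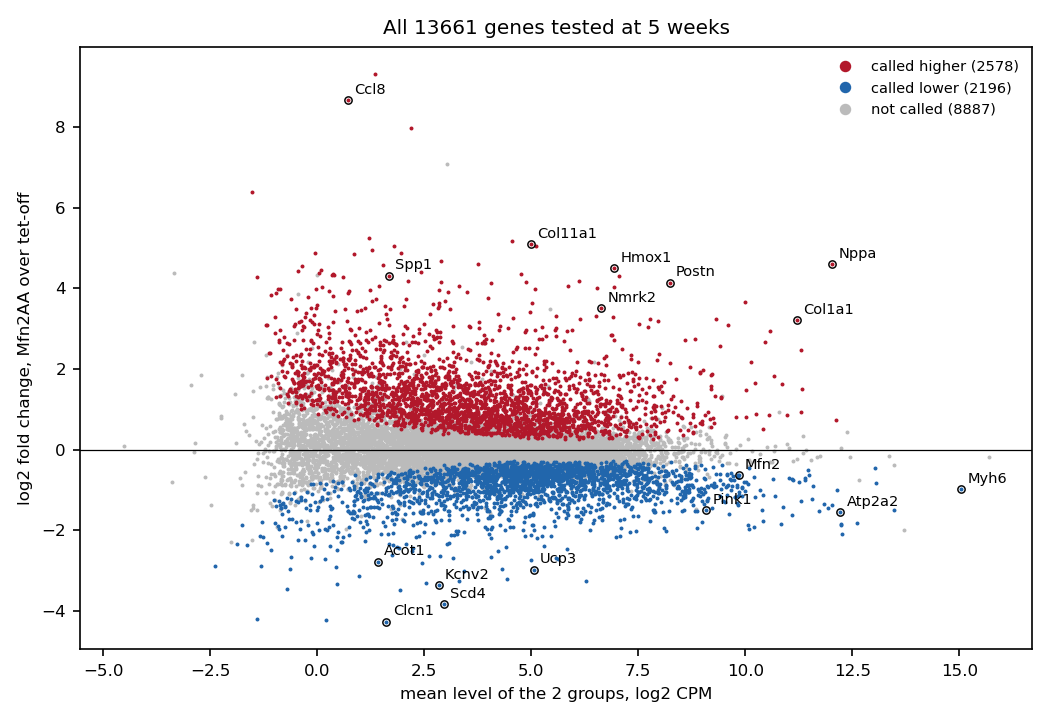
Log2 fold change of Mfn2AA over tet-off hearts at 5 weeks (vertical axis) against the mean level of each gene in both groups (horizontal axis, log2 CPM), with 1 point for each of the 13661 genes tested. Red points are the 2578 genes called higher in Mfn2AA hearts, blue points the 2196 called lower and grey points those not called. Nppa and Col1a1 lie at the upper right, among abundant transcripts, and Myh6 and Atp2a2 at the lower right.

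Mfn2AA libraries held 16663207 to 23732780 counts and tet-off libraries 9929934 to 12794567, so depth moved with the group, and counts thinned to the shallowest library gave 4563 calls. Values by library below are CPM, counts scaled to library size with edgeR's TMM factors. The first principal component of the 15 libraries of the batch held 45.7% of the variance and placed the 4 Mfn2AA libraries between 57.4 and 81.8 and the other 11 at -14.0 or lower. Xist, the RNA of the inactive X chromosome, was high in 2 of the 4 Mfn2AA libraries and in 0 of the 3 tet-off ones. Without those 2 libraries, Mfn2AA hearts B and C, 4705 genes were called, 4046 of them among the 4774. The ventricular cardiomyocyte markers Myh6, Myl2 and Tnni3 were abundant in all 7 libraries. Of the atrial markers, Myl7 stood at 45.9, 20.2, 5.85 and 177 CPM in Mfn2AA hearts, against 11.4, 2.32 and 50.2 CPM in tet-off hearts, so traces of atrial transcripts varied between libraries of both groups. Fewer cells of a type and less RNA per cell cannot be told apart in bulk tissue.

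The human transgene was read at 336, 613, 851 and 360 FPKM, a level scaled to transcript length and library depth, in Mfn2AA hearts, against 190, 3.96 and 23.7 FPKM in tet-off hearts. All Mfn2AA libraries lay above all tet-off libraries, and the library tet-off heart A came closest. What the signal in tet-off heart A comes from was not tested. The means were 540 ± 242 FPKM (SD, n = 4) in Mfn2AA and 72.6 ± 102 FPKM (SD, n = 3) in tet-off hearts. The difference was 4.13 on the log2(FPKM + 1) scale, with an exact two-sided permutation p = 0.0571, the smallest that 4 against 3 libraries allow. In nontransgenic hearts of the same batch the signal was 4.65, 4.5, 20.02 and 5.85 FPKM, and in Mfn2wt hearts 1232, 1745, 1400 and 1501 FPKM. The levels in Mfn2AA hearts were thus below all 4 Mfn2wt levels.

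The mouse Mfn2 gene (chr4:147873595-147904819, minus strand, build mm10) had 628, 827, 722 and 716 CPM in Mfn2AA hearts, against 1034, 1152 and 1162 CPM in tet-off hearts. The groups did not overlap, and Mfn2 was lower in Mfn2AA hearts by a log2 fold change of -0.63 ± 0.11 (SE, adjusted p = 5.00e-04). How reads of the human cDNA were shared with the mouse gene is not given in the sources used here. With limma on log2 FPKM the Mfn2 difference was -0.37 (adjusted p = 0.0564). Pink1 (chr4:138313410-138326296, minus strand), which encodes the kinase, had 337, 331, 242 and 216 CPM in Mfn2AA hearts, against 646, 712 and 1051 CPM in tet-off hearts. It fell by more than Mfn2, to a log2 fold change of -1.51 ± 0.22 (SE, adjusted p = 1.06e-04). Park2 (chr17:10840384-12063360, plus strand), which encodes Parkin, was scarce, with 3.04, 4.25, 3.6 and 4.19 CPM in Mfn2AA hearts, against 4.36, 4.20 and 3.39 CPM in tet-off hearts. These ranges overlapped, and its log2 fold change was -0.08 ± 0.20 (SE, adjusted p = 0.787).

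**Figure D2:**
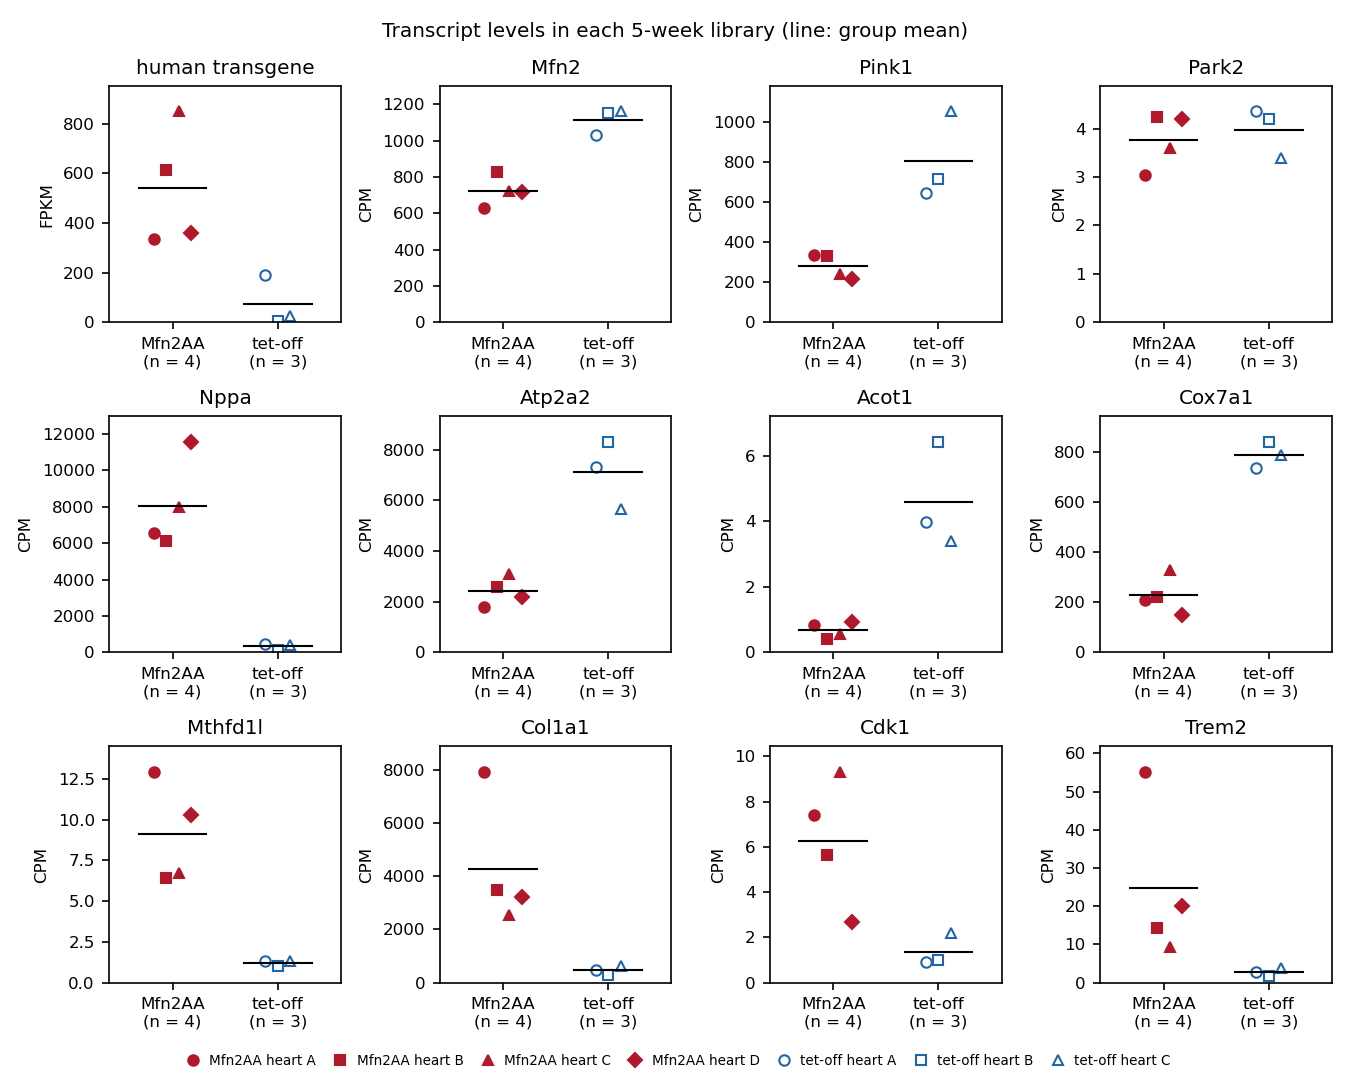
Level of the human transgene (FPKM) and of 11 mouse genes (CPM, linear axes from 0) in each of the 4 Mfn2AA libraries (red, left) and 3 tet-off libraries (blue, right), with the group mean as a line and a marker shape for each library. Mfn2, Pink1, Atp2a2, Acot1 and Cox7a1 were lower in every Mfn2AA library, Nppa, Mthfd1l, Col1a1, Cdk1 and Trem2 were higher in every one, and the Park2 ranges overlapped.

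Among 23 tested mitophagy genes, 8 fell and 1 rose, with a median log2 fold change of -0.09, which turned positive with limma on log2(FPKM + 1), at 0.0958, with 4 falls and 2 rises. Beside Pink1, the falls among sensors, receptors and ligases were those of the inner-membrane receptor Phb2 at -0.72 ± 0.13 (each such pair is a log2 fold change with its SE), the mitochondrial ubiquitin ligase Mul1 at -0.68 ± 0.13 and the receptor Bcl2l13 at -0.54 ± 0.11. With limma the calls of Mul1, at -0.41 (adjusted p = 0.0800), and Bcl2l13, at -0.27 (adjusted p = 0.250), were lost. The single rise was that of Sqstm1, the adaptor p62, at 0.41 ± 0.15, and it lost its call without Mfn2AA heart B, Mfn2AA heart D or any 1 of the tet-off libraries (adjusted p up to 0.132). In all the Sqstm1 call was lost in 8 of 19 alternative settings (highest adjusted p = 0.237). Among genes of mitochondrial shape and movement 11 of 21 fell and 1 rose, with a median of -0.63. Mtfp1, which promotes fission, stood at -1.67 ± 0.19, the transport GTPase Rhot2 at -1.18 ± 0.18, the fusion factor Fam73b (Miga2) at -1.14 ± 0.18 and the protease Oma1, which cleaves the inner-membrane fusion protein OPA1, at -0.97 ± 0.17. Inf2, an actin-nucleating protein that aids fission, was the single rise at 0.80 ± 0.28, and it lost its call without Mfn2AA heart A, Mfn2AA heart B, tet-off heart A or tet-off heart B (highest adjusted p = 0.154 over all settings). The count of falls in this list ran from 6 to 10 when 1 library was left out, the lowest without Mfn2AA heart D or tet-off heart B.

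Most nuclear genes of the respiratory chain fell. Of 36 tested complex I subunits 30 were called lower and 0 higher, with a median of -1.0, against 16.1% of all genes called lower. In complexes II to IV 21 of 28 fell (4 of 4 in complex II, 8 of 10 in complex III and 9 of 14 in complex IV), and in ATP synthase 16 of 17. Ndufs6, an accessory subunit of complex I, had 468, 352, 434 and 318 CPM in Mfn2AA hearts, against 1132, 964 and 1476 CPM in tet-off hearts, a log2 fold change of -1.60 ± 0.23 (SE, adjusted p = 1.10e-04). Cox7a1, the heart and muscle form of a complex IV subunit, had 209.7, 219.7, 328 and 149.7 CPM in Mfn2AA hearts, against 735, 839.9 and 786 CPM in tet-off hearts. No library of one group reached the range of the other, and its log2 fold change was -1.80 ± 0.23 (SE, adjusted p = 3.74e-05). Smaller falls in the same machines were those of Ndufv3 (-1.25 ± 0.18), Ndufa1 (-1.24 ± 0.28), Ndufs1 (-1.15 ± 0.24), the complex III subunit Uqcrq (-1.21 ± 0.18), Cox8b (-1.31 ± 0.28), Cox5a (-1.27 ± 0.27), Atp5e (-1.33 ± 0.20) and Atp5g3 (-1.15 ± 0.22). Cycs, which encodes cytochrome c, stood at -0.66 ± 0.41 (SE, adjusted p = 0.231) and was not called. The Ndufs1 call was lost with limma, at -0.89 (adjusted p = 0.0672).

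All 13 protein-coding genes of the mitochondrial genome were called lower, with a median of -1.83. Their level varied between libraries of both groups. The share of all counts in genes named mt- was 5.40%, 2.1%, 3.38% and 2.42% in Mfn2AA hearts and 8.09%, 6.14% and 14.2% in tet-off hearts. The complex IV gene mt-Co1 had 5568, 5172, 7769 and 5251 CPM in Mfn2AA hearts, against 17024, 14736 and 18531 CPM in tet-off hearts, and mt-Nd2 of complex I stood at -2.09 ± 0.48. Without tet-off heart C, the library with the highest share, 8 of the 13 remained called and mt-Nd2 moved to -1.36. The count was also 8 without Mfn2AA hearts B and C, and 4 without Mfn2AA heart D and tet-off heart C, the libraries of highest Myl7 in each group, where mt-Nd2 stood at -1.21 (adjusted p = 0.0803). Transcripts for making mitochondrial proteins fell as well: 54 of 77 mitochondrial ribosomal protein genes fell and 0 rose (median -0.67), with Mrpl42 at -1.24 ± 0.16 and Mrps30 at -1.06 ± 0.15. Of 14 mitochondrial chaperones and proteases 8 fell, among them the chaperonin Hspd1 (-1.20 ± 0.18) and the unfoldase Clpx (-1.18 ± 0.16).

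Of 15 coactivators and receptors that drive these programs 8 fell and 1, Nrf1, rose (0.40 ± 0.13). The Nrf1 call was lost without Mfn2AA heart A, Mfn2AA heart B, tet-off heart A or tet-off heart C (adjusted p up to 0.0834). In all it was lost in 8 of 19 alternative settings (highest adjusted p = 0.108). The retinoid X receptor gene Rxrg had 22.7, 27.1, 26.4 and 18.9 CPM in Mfn2AA hearts, against 70.6, 74.0 and 68.3 CPM in tet-off hearts, a log2 fold change of -1.58 ± 0.13 (SE, adjusted p = 1.20e-06). Its ranges did not overlap. Ppara, the receptor that switches on genes of fatty acid oxidation, stood at -1.12 ± 0.15, the coactivator Ppargc1b at -1.01 ± 0.19 and the oestrogen-related receptor Esrrg at -0.98 ± 0.12. Of 9 genes that copy, transcribe or package mitochondrial DNA 5 fell, with the helicase Peo1 (Twinkle) at -1.18 ± 0.14 and the transcription factor Tfb2m at -0.88 ± 0.18.

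Genes of fat use fell in most members. Of 37 genes of fatty acid uptake and oxidation 30 fell and 1 rose, with a median of -1.24, and within the list 17 of the 18 genes of beta oxidation and its partners fell. The enoyl-CoA isomerase Eci1 had 49.9, 62.7, 63.3 and 48.7 CPM in Mfn2AA hearts, against 233, 246 and 166 CPM in tet-off hearts. Its groups lay far apart, with a log2 fold change of -1.94 ± 0.17 (SE, adjusted p = 2.28e-06). The thiolase Acaa2, which splits off acetyl-CoA, averaged 99.4 ± 21.1 CPM in Mfn2AA hearts and 338 ± 23.1 CPM in tet-off hearts (SD, n = 4 and 3), or -1.76 ± 0.16. The thioesterases Acot1 (-2.78 ± 0.31) and Acot2 (-1.77 ± 0.29) are near-identical neighbours whose reads may have been shared between them. Ucp3, an uncoupling protein of muscle mitochondria, had 13.4, 6.86, 3.04 and 6.66 CPM in Mfn2AA hearts, against 32.5, 43.0 and 101 CPM in tet-off hearts, a log2 fold change of -2.98 ± 0.41 (SE, adjusted p = 7.13e-05). It fell the most in the list and stood at -2.34 without tet-off heart C. Its relative Ucp2, which immune cells express too, was the single rise, at 1.75 ± 0.53 (SE, adjusted p = 0.0179). Ucp2 was at 1157 CPM in Mfn2AA heart A and between 205 and 367 CPM in the other 3, and without that library it was no longer called, at 0.96 (adjusted p = 0.0688). Its call was also lost without tet-off heart A or tet-off heart B, and in all in 5 of 19 alternative settings.

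In the cycle that burns acetyl-CoA, 15 of 17 TCA cycle enzymes fell (median -0.95), with Ogdhl at -1.75 ± 0.26, Suclg2 at -1.26 ± 0.21 and Idh2 at -1.18 ± 0.19. Of 17 genes of branched-chain amino acid breakdown 15 fell, including the dehydrogenase subunit Bckdha (-1.52 ± 0.17), its phosphatase Ppm1k (-1.38 ± 0.27) and the carboxylase subunit Mccc2 (-1.45 ± 0.12). The Ppm1k call was lost with limma, at -0.72 (adjusted p = 0.0921). Of 5 ketone genes 1 fell. Bcat1, the cytosolic transaminase that cardiomyocytes normally use little, rose instead, at 9.58, 5.66, 4.84 and 5.18 CPM in Mfn2AA and 1.5, 1.09 and 1.97 CPM in tet-off hearts (2.07 ± 0.38). In lipid storage 8 of 17 genes fell, with the droplet protein Plin5 at -1.60 ± 0.16, the triglyceride-making enzyme Dgat2 at -1.71 ± 0.16 and the phosphatidate phosphatase Lpin1 at -1.36 ± 0.16. Scd4, the desaturase found in heart, had 1.34, 0.835, 0.752 and 1.18 CPM in Mfn2AA hearts, against 14.3, 19.0 and 10.1 CPM in tet-off hearts, a log2 fold change of -3.83 ± 0.34 (SE, adjusted p = 2.22e-06). The carboxylesterase Ces1d stood at -3.20 ± 0.25. Of 17 creatine and adenine nucleotide genes 5 fell and 1 rose, where 16.1% of all genes fell and 18.9% rose. The creatine kinase Ckm stood at -1.41 ± 0.20 and the oxygen store myoglobin, Mb, at -0.82 ± 0.20, while Gatm, which makes the precursor of creatine, rose by 1.09 ± 0.25. The Mb call was lost with limma, at -0.64 (adjusted p = 0.0588).

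Genes of glucose use went both ways, 11 higher and 18 lower of 42, where 18.9% of all genes were higher and 16.1% lower. The count of rises was 7 without tet-off heart B, 6 without tet-off heart C and 6 without Mfn2AA heart D and tet-off heart C together. In transport and glycolysis 9 rose and 8 fell. The insulin-responsive transporter of muscle, Slc2a4, had 323, 291, 239.8 and 212 CPM in Mfn2AA hearts, against 459.5, 492 and 561 CPM in tet-off hearts, while the general transporter Slc2a1 had 50.8, 40.4, 26.3 and 35.3 CPM in Mfn2AA hearts, against 13.2, 14.2 and 14.9 CPM in tet-off hearts. Slc2a4 thus stood at -0.92 ± 0.16 and Slc2a1 at 1.44 ± 0.21. The muscle isoforms Pfkm (-0.91 ± 0.14), Pgam2 (-0.83 ± 0.14) and Eno3 (-1.16 ± 0.15) fell, and their counterparts outside muscle, Pfkp (1.49 ± 0.17), Pgam1 (0.79 ± 0.13) and Eno1 (0.71 ± 0.22), rose. These paralog pairs were picked after their values were seen. The Eno1 call was lost without Mfn2AA heart A, Mfn2AA heart D, tet-off heart B or tet-off heart C (highest adjusted p = 0.161 over all settings). Slc16a3, which exports lactate, rose by 3.01 ± 0.51, and the glycogen-binding Stbd1 by 2.28 ± 0.48. Pfkfb1, which sets the level of a glycolytic activator, stood at -2.63 ± 0.23 and the muscle fructose bisphosphatase Fbp2 at -3.26 ± 0.24. Pdk4, the kinase that shuts pyruvate out of mitochondria when fat is burned, stood at -1.5 ± 0.45 (SE, adjusted p = 0.0161) and at -1.21 (adjusted p = 0.0808) without tet-off heart C. Its call was lost in 4 of 19 alternative settings. Among 17 hypoxia targets 6 rose and 3 fell, where 16.1% of all genes fell, with the carbonic anhydrase Car9 at 2.39 ± 0.57. The falls numbered 1 without Mfn2AA heart A, C or D or without tet-off heart A or B, and with the 7 libraries fitted alone 3 rose and 1 fell.

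The integrated stress response is the program in which the factor ATF4 raises amino acid and folate enzymes when translation or mitochondria are disturbed. Of 32 tested genes of it 17 rose and 2 fell, with a median of 0.71. The mitochondrial folate enzyme Mthfd1l had 12.9, 6.39, 6.73 and 10.3 CPM in Mfn2AA hearts, against 1.35, 1.01 and 1.31 CPM in tet-off hearts. The lowest Mfn2AA library was several times the highest tet-off library, and the log2 fold change was 2.89 ± 0.32 (SE, adjusted p = 1.24e-05). Its partner Mthfd2 had 6.72, 12.4, 9.22 and 11.7 CPM in Mfn2AA hearts, against 3.01, 1.81 and 2.51 CPM in tet-off hearts, at 2.04 ± 0.23 (SE, adjusted p = 1.32e-05). The secreted Gdf15 (2.63 ± 0.48), the small chromatin protein Nupr1 (2.55 ± 0.36) and the amino acid transporter Slc7a5 (1.89 ± 0.17) rose with them. Atf4 itself rose by 0.49 ± 0.14, and its call was lost without tet-off heart A or tet-off heart B (highest adjusted p = 0.075 over all settings). Asns, the asparagine synthetase, had 1.84, 2.61, 2.65 and 3.5 CPM in Mfn2AA hearts, against 1.5, 0.724 and 0.874 CPM in tet-off hearts, a rise of 1.34 ± 0.40 that lost its call without tet-off heart B or tet-off heart C. Atf4 and Asns were named after their values were seen. The falls were those of the folate enzyme Aldh1l2 (-1.0 ± 0.22) and of Cth, which makes cysteine, with 0.184, 0.145, 0.0981 and 0.148 CPM in Mfn2AA hearts, against 1.13, 0.579 and 0.437 CPM in tet-off hearts. The Aldh1l2 call was lost with limma, at -0.46 (adjusted p = 0.123). Ddit4, an inhibitor of growth signalling, was not called at 1.25 ± 0.53 (SE, adjusted p = 0.0791), or 0.65 without Mfn2AA heart A.

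Hearts with the unmutated transgene lay at high values of this list. Each library's mean over the list, as log2 above the mean of the tet-off libraries, was 0.52 to 0.91 in Mfn2AA hearts, 1.21 to 1.36 in Mfn2wt hearts, -0.16 to 0.11 in tet-off hearts and -0.17 to 0.23 in nontransgenic hearts. Against Mfn2wt hearts 15 of the 32 genes were lower in Mfn2AA hearts and 5 higher, where against nontransgenic hearts 21 were higher and 2 lower. Mthfd2 stood at -2.58 ± 0.19 against Mfn2wt and at 2.76 ± 0.22 against nontransgenic hearts, and Mthfd1l at 1.14 ± 0.26 against Mfn2wt and 1.68 ± 0.26 against nontransgenic hearts. In 9 of the other 11 lists plotted by library, the exceptions being endothelial markers and mitochondrially encoded genes, the Mfn2AA libraries did not overlap those of any other group. Some lists not plotted did overlap, such as fetal and slow sarcomere isoforms, adipocyte markers and interferon-stimulated genes.

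**Figure D3:**
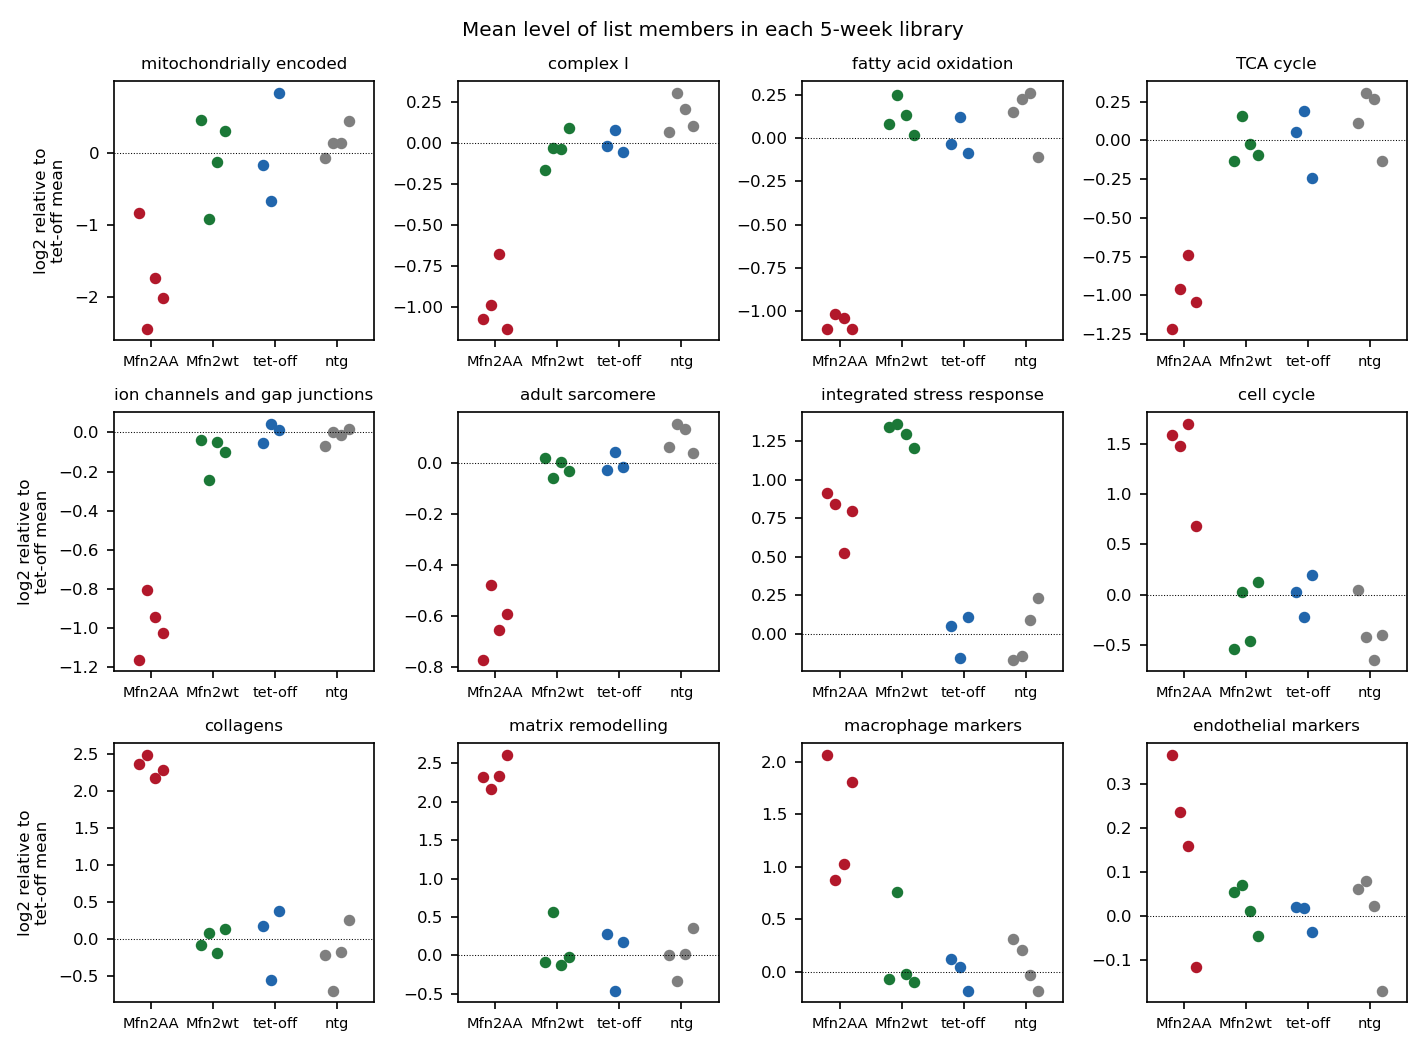
Mean over the tested members of 12 gene lists in each of the 15 libraries of the 5-week batch, as log2 CPM relative to the mean of the tet-off libraries (vertical axes, own scale in each panel), in the order Mfn2AA (red), Mfn2wt (green), tet-off (blue) and nontransgenic, ntg (grey). Mfn2AA libraries lie beyond all others in 9 lists, not in the endothelial markers or the mitochondrially encoded genes. In the integrated stress response they lie apart too, below the 4 Mfn2wt libraries, which are the highest, and above the tet-off and nontransgenic ones.

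Promoters of Nupr1 and Asns are shown because they carry the composite element that ATF4 binds, written TGATGNAA on either strand and in capitals here. The sequences run from 250 bases before to 50 bases after the start of the gene, 5′ to 3′ on the gene's strand, and are from RefSeq on GRCm38.p6, the assembly of mm10.
Nupr1 (chr7:126625421-126625720, minus strand): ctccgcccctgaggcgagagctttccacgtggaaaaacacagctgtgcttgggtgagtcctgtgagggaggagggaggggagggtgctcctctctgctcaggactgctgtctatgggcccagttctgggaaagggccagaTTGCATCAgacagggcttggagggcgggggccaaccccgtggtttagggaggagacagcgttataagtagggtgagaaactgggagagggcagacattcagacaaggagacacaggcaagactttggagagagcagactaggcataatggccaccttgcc
Asns (chr6:7693160-7693459, minus strand): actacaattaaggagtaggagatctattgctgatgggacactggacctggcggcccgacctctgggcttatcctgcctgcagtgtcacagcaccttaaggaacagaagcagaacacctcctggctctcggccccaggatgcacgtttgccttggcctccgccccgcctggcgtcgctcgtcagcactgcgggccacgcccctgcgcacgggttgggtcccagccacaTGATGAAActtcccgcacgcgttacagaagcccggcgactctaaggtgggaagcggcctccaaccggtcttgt
Of 29 tested list members with a promoter sequence 9 (31.0%) held the element, against 236 of 10742 tested genes with one (2.20%) and 1089 of 27025 genes in all (4.03%). Among the called rises it was in 5 of 16 (31.2%). A match in letters is a description and not a site shown to be bound.

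Of 24 genes of antioxidant defence 5 rose, a share near the 18.9% of all genes, and 9 fell. The rises numbered 3 without Mfn2AA heart A, 2 without tet-off heart A and 3 without tet-off heart C. The median of -0.14 turned positive with limma on log2(FPKM + 1), at 0.0867. Within mitochondria the superoxide dismutase Sod2 (-1.20 ± 0.13), the peroxiredoxin Prdx3 (-1.08 ± 0.27), the transhydrogenase Nnt (-1.06 ± 0.15) and the glutathione transferase Gstk1 (-1.92 ± 0.31) fell. The Prdx3 call was lost with limma, at -0.81 (adjusted p = 0.106). The secreted glutathione peroxidase Gpx3 rose, with 895, 565, 548 and 1277 CPM in Mfn2AA and 210.5, 178 and 239 CPM in tet-off hearts (1.97 ± 0.27). Hmox1, which breaks down haem, had 849.8, 22.7, 19.8 and 43.7 CPM in Mfn2AA hearts, against 9.92, 9.91 and 11.4 CPM in tet-off hearts. Its log2 fold change of 4.49 ± 1.27 (SE, adjusted p = 0.0125) rested on Mfn2AA heart A: without it the value was 1.47 (adjusted p = 0.0585), and the call was also lost without tet-off heart A, tet-off heart B or tet-off heart C. In all the Hmox1 call was lost in 6 of the 18 alternative settings in which it could be tested. Of 22 endoplasmic reticulum chaperones and sensors 9 rose, Pdia4 among them (0.87 ± 0.13), and 1, Canx, fell (-0.48 ± 0.12), which limma did not call, at -0.23 (adjusted p = 0.426).

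Of 21 classical stress genes of the heart 12 rose and 2 fell, the small heat shock protein Cryab (-0.72 ± 0.24) and the LIM protein Lmcd1 (-0.97 ± 0.16). The Cryab call was lost without any 1 of Mfn2AA heart A, Mfn2AA heart B, Mfn2AA heart C or tet-off heart C, and its value was -0.39 without the last of these. In all the Cryab call was lost in 10 of 19 alternative settings. Nppa (chr4:148000746-148002067, plus strand), the atrial natriuretic peptide that stressed ventricles make again, had 6536, 6131, 7961 and 11577 CPM in Mfn2AA hearts, against 486, 116 and 390.4 CPM in tet-off hearts. The lowest Mfn2AA library was more than 10 times the highest tet-off library, and the log2 fold change was 4.61 ± 0.51 (SE, adjusted p = 1.25e-05). Nppa was highest, at 11577 CPM, in Mfn2AA heart D, which also had the most of the atrial marker Myl7 (177 CPM). It was at 7961 CPM in Mfn2AA heart C, which had the least Myl7 of the Mfn2AA libraries (5.85 CPM). The part of atrial tissue in the Nppa difference was not tested. Nppb, the ventricular peptide, rose by 2.14 ± 0.34. Nmrk2, a muscle enzyme that makes NAD from nicotinamide riboside, had 97.6, 245, 192 and 198 CPM in Mfn2AA hearts, against 19.6, 12.9 and 16.1 CPM in tet-off hearts, at 3.5 ± 0.26 (SE, adjusted p = 1.03e-06). Further rises were those of the matrix-linked growth factor Ctgf (3.23 ± 0.38), the deubiquitinating enzyme Uchl1 (2.74 ± 0.35), the LIM protein Fhl1 (2.36 ± 0.19) and Sprr1a, a stress-induced protein (4.40 ± 0.71). The Sprr1a value was 5.17 without tet-off heart A and 3.75 without tet-off heart B. Ankrd1, a stretch-responsive repressor and abundant transcript, had 2716, 3517, 4135 and 4906 CPM in Mfn2AA hearts, against 1584, 1369.9 and 1080.3 CPM in tet-off hearts, a log2 fold change of 1.51 ± 0.26 (SE, adjusted p = 4.82e-04).

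The promoter of Ankrd1 holds GGAATG, the core that TEAD factors bind, at more than 1 place, and is shown with these in capitals, from RefSeq on GRCm38.p6.
Ankrd1 (chr19:36119795-36120094, minus strand): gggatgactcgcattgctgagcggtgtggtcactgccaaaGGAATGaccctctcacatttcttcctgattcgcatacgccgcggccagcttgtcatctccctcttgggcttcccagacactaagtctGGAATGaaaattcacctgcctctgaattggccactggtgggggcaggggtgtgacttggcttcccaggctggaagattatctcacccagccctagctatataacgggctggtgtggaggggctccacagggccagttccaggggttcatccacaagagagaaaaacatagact
In this list 6 of 18 tested members with a promoter sequence held the 6 letters on either strand (33.3%), among them 3 of 11 called rises (27.3%), against 1309 of 10742 tested genes (12.2%).

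Among 26 genes of the adult contractile apparatus 16 fell and 1 rose, Pdlim5 (0.49 ± 0.16). The Pdlim5 call was lost without Mfn2AA heart C, Mfn2AA heart D, tet-off heart A or tet-off heart C (adjusted p up to 0.0936). In all it was lost in 7 of 19 alternative settings (highest adjusted p = 0.189). Myh6, the fast adult myosin heavy chain and the most abundant protein-coding transcript, had 23215, 28433, 20452 and 18523 CPM in Mfn2AA hearts, against 43055, 43719 and 47546 CPM in tet-off hearts. That is a log2 fold change of -0.98 ± 0.17 (SE, adjusted p = 3.39e-04), with no overlap. The call was lost with limma, at -3.90 (adjusted p = 0.522), where the deposited FPKM of Mfn2AA heart B is listed at 0 although the library holds 783147 reads of the gene. The light chains Myl2 (-1.01 ± 0.15) and Myl3 (-1.22 ± 0.19), the inhibitory troponin Tnni3 (-1.37 ± 0.16) and the Z-disc protein Myot (-1.46 ± 0.25) fell too. Of 16 fetal and slow isoforms 3 were higher and 2 lower, near the shares of all genes, 18.9% and 16.1%. The rises numbered 5 without Mfn2AA heart A or Mfn2AA heart D. Tnnt3, the fast skeletal troponin T, rose by 4.18 ± 1.0, or 2.37 without Mfn2AA heart D, and the smooth muscle light chain Myl9 by 2.18 ± 0.37. Myh7b stood at -1.64 ± 0.21 and Tnnt1 at -1.39 ± 0.18. Acta1, a marker of hypertrophy, was not called, at 0.93 ± 0.41 (SE, adjusted p = 0.0926). The atrial light chains Myl7 at 1.57 ± 1.17 (SE, adjusted p = 0.328) and Myl4 at 2.17 ± 1.18 (SE, adjusted p = 0.171) were not called either, and without Mfn2AA heart D they stood at 0.20 and 0.18. Dkk3, another gene of the atrial list, rose by 2.97 ± 0.58, or 3.89 without tet-off heart C. Of 13 atrial markers tested 2 rose, where 18.9% of all genes did. Summed over 14 atrial markers, the level ran from 6349 to 12503 CPM in Mfn2AA hearts and from 209.8 to 654 CPM in tet-off hearts. Nppa alone made up most of the Mfn2AA sums, at 6131 to 11577 CPM, against 116 to 486 CPM in tet-off hearts. The part of atrial tissue in these values was not tested.

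Among 27 calcium cycling genes 11 fell and 3 rose, where 16.1% of all genes fell and 18.9% rose. The rises numbered 5 without Mfn2AA heart C and 1 without tet-off heart B. Atp2a2 (chr5:122453513-122502225, minus strand), the pump SERCA2 that refills the sarcoplasmic reticulum, had 1792, 2577, 3108 and 2171 CPM in Mfn2AA hearts, against 7319, 8323 and 5659.9 CPM in tet-off hearts. It was lower in every Mfn2AA library, with a log2 fold change of -1.56 ± 0.18 (SE, adjusted p = 2.22e-05). The calcium-binding Hrc (-1.91 ± 0.16), the SERCA2 inhibitor Pln (-1.37 ± 0.16), the T-type channel Cacna1g (-1.55 ± 0.25) and the junctional protein Trdn (-1.05 ± 0.16) fell alongside.

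Of 17 potassium channel genes 15 fell and 0 rose, with a median of -1.09. Kcnv2, a silent subunit, had 1.20, 1.42, 1.18 and 1.23 CPM in Mfn2AA hearts, against 13.1, 15.6 and 10.4 CPM in tet-off hearts, a log2 fold change of -3.37 ± 0.25 (SE, adjusted p = 1.03e-06). Kcnj3, part of the acetylcholine-gated channel, stood at -1.92 ± 0.23, Kcnip2, which shapes the transient outward current, at -1.42 ± 0.25, and Abcc9, the receptor part of the ATP-sensitive channel, at -1.54 ± 0.26. Of 12 sodium, pacemaker and gap junction genes 4 fell and 1 rose, where 16.1% of all genes fell and 18.9% rose. The sodium channel subunit Scn4b had 12.7, 17.6, 11.4 and 10.3 CPM in Mfn2AA hearts, against 78.2, 107 and 72.4 CPM in tet-off hearts (-2.72 ± 0.35), and the pacemaker channel Hcn4 stood at -2.96 ± 0.36, or -2.21 without tet-off heart C. Clcn1, the chloride channel of muscle, fell the most of all genes the naming rule takes, with 0.276, 0.472, 0.131 and 0.296 CPM in Mfn2AA hearts, against 4.88, 4.99 and 7.54 CPM in tet-off hearts, a log2 fold change of -4.27 ± 0.37 (SE, adjusted p = 2.05e-06).

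Several receptors that carry sympathetic and angiotensin signals fell. The alpha-1 adrenergic receptor Adra1a had 4.97, 4.25, 4.48 and 4.29 CPM in Mfn2AA hearts, against 24.7, 34.2 and 27.1 CPM in tet-off hearts, a log2 fold change of -2.67 ± 0.17 (SE, adjusted p = 6.19e-07). Adra1b stood at -2.15 ± 0.14, the beta-1 receptor Adrb1 at -1.31 ± 0.21 and the angiotensin receptor Agtr1a at -2.03 ± 0.16. In the whole list 8 of 20 fell and 2 rose, one of them Grk5, a kinase that silences receptors (0.83 ± 0.16). Other steep falls among genes with no overlap between groups were those of the secreted Lgi1 (-3.48 ± 0.47), the enkephalin precursor Penk (-3.30 ± 0.62, or -4.06 without Mfn2AA heart A), the ephrin Efnb3 (-3.27 ± 0.21), the membrane protein Lingo3 (-3.02 ± 0.27) and the muscle protein Ky (-2.74 ± 0.22). Rbfox1, a splicing regulator (-2.20 ± 0.15), Hopx, a cardiac cofactor (-2.05 ± 0.15), and Gal3st3, a sulfotransferase (-2.42 ± 0.17), were among the falls of smallest p.

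**Figure D4:**
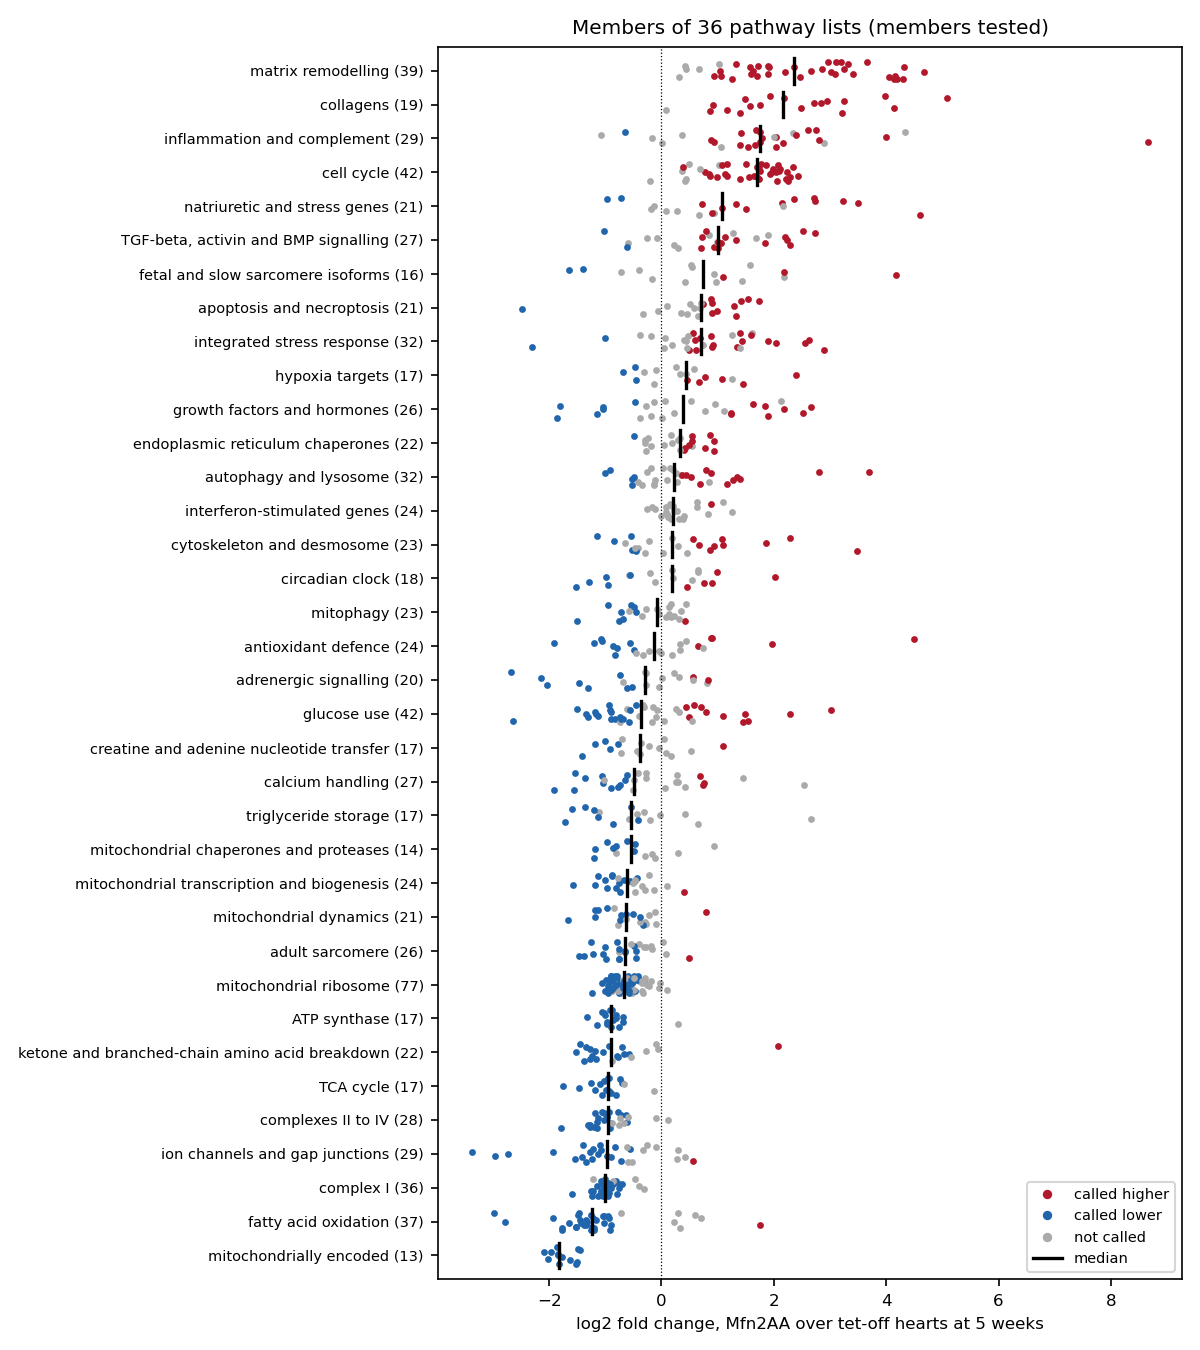
Log2 fold change of Mfn2AA over tet-off hearts at 5 weeks (horizontal axis) for each tested member of 36 pathway lists, ordered by median (black line) with the number of members tested in parentheses. Red points were called higher, blue points lower and grey points not called. Matrix and collagen genes lie at the top, and mitochondrially encoded, fatty acid oxidation and complex I genes at the bottom.

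Nearly all extracellular matrix genes rose. Of 19 tested collagens 18 rose and 0 fell, with a median of 2.17, and of 39 other matrix genes 34 rose and 0 fell (median 2.35). Background was 18.9% of genes called higher. Col1a1, the main fibrillar collagen, had 7941, 3489, 2529.8 and 3205 CPM in Mfn2AA hearts, against 487, 286 and 620.4 CPM in tet-off hearts. Every Mfn2AA library was above every tet-off library, by a log2 fold change of 3.21 ± 0.42 (SE, adjusted p = 4.82e-05). Col1a2 (2.95 ± 0.27) and Col3a1 (2.48 ± 0.25) rose too, and the scarcer Col11a1 (5.09 ± 0.85), Col8a2 (4.14 ± 0.53) and Col12a1 (3.98 ± 0.49) rose more steeply. Postn, the matricellular protein of activated fibroblasts, had 91.6, 305, 959 and 921 CPM in Mfn2AA hearts, against 58.8, 19.6 and 18.03 CPM in tet-off hearts, a log2 fold change of 4.14 ± 0.81 (SE, adjusted p = 0.00110). Cthrc1, made by fibroblasts in healing myocardium, stood at 4.66 ± 0.67. The values were 4.91 for Postn and 5.47 for Cthrc1 without tet-off heart A. The TGF-beta-binding Ltbp2 (4.29 ± 0.55), osteopontin, Spp1 (4.32 ± 0.90), tenascin, Tnc (3.40 ± 0.57), Thbs4 (3.31 ± 0.47), Mfap5 (3.25 ± 0.31), Sparc (1.63 ± 0.13), the crosslinking enzyme Lox (4.18 ± 0.63) and the protease inhibitor Timp1 (4.16 ± 0.79) rose too. Cilp was lower in Mfn2AA heart A, at 78.2 CPM, than in the other 3 Mfn2AA libraries, at 277 to 288 CPM, and rose by 4.04 ± 0.50 over all 4.

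Markers of fibroblasts rose in 9 of 12 members, and those of activated fibroblasts in 8 of 10. Summed over the fibroblast list, levels ran from 7179 to 13923 CPM in Mfn2AA hearts, highest in Mfn2AA heart A, and from 2686 to 3105 CPM in tet-off hearts. These lists share Col1a1, Col1a2, Postn and other members with the matrix lists. Of 13 endothelial markers 1 rose, with a median of 0.06. That one was Vwf, the clotting factor of endothelium, at 1.77 ± 0.48, or 1.10 without Mfn2AA heart A. Of 12 mural and smooth muscle markers 4 rose (2 without tet-off heart A) and 1 fell. Of 9 adipocyte markers 2 rose, a share near the 18.9% of all genes. The adipocyte rises numbered 0 without Mfn2AA heart D, tet-off heart A or tet-off heart B. Of 9 Schwann and neuronal markers 2 fell, a share near the 16.1% of all genes. Skeletal muscle markers gave 1 rise and 2 falls of 5, with sums of 696 to 1232 CPM in Mfn2AA and 2397 to 3349.8 CPM in tet-off hearts. The defining skeletal muscle markers Myh4 and Mylpf were below 1 CPM in all 7 libraries, so other listed genes made up these sums. None of 7 epicardial or 2 erythroid markers was called, and 4 of the 7 erythroid genes listed had 0 reads in all 7 libraries. The part of cell type shares in the gene values was not tested.

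In the TGF-beta, activin and BMP list 15 of 27 rose and 2 fell, Acvr2b (-1.03 ± 0.28) and Smad3 (-0.62 ± 0.13). The Acvr2b call was lost without tet-off heart C, at -0.77 (adjusted p = 0.0606), and the Smad3 call with limma, at -0.33 (adjusted p = 0.0960). Tgfb2 had 42.6, 58.9, 63.7 and 99.1 CPM in Mfn2AA hearts, against 18.1, 11 and 14.1 CPM in tet-off hearts, a log2 fold change of 2.20 ± 0.25 (SE, adjusted p = 1.41e-05). Tgfb3 stood at 1.85 ± 0.22, the activin subunit Inhba at 2.52 ± 0.34, and the secreted antagonists and relatives Fst (2.28 ± 0.57), Fstl1 (2.73 ± 0.21) and Fstl3 (2.24 ± 0.28) rose with them. Of 26 growth factors and hormones 8 were higher and 6 lower, where 18.9% of all genes were higher and 16.1% lower. The lower ones numbered 3 without tet-off heart A or tet-off heart B. Rises included the vasoconstrictor endothelin, Edn1 (2.19 ± 0.47, or 1.52 without Mfn2AA heart A), Igf1 (1.89 ± 0.19), the IGF-binding Igfbp7 (1.84 ± 0.25) and Fgf6 (2.52 ± 0.62). Ctf1, which encodes cardiotrophin, stood at -1.87 ± 0.24.

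Among 18 macrophage markers 14 rose and 1 fell, Timd4 (-1.41 ± 0.31), a marker of resident macrophages. Trem2, a lipid-sensing receptor, had 55.2, 14.4, 9.45 and 20.0 CPM in Mfn2AA hearts, against 2.71, 1.81 and 3.82 CPM in tet-off hearts. All Mfn2AA libraries were higher, Mfn2AA heart A most, and the log2 fold change was 3.17 ± 0.52 (SE, adjusted p = 2.78e-04), or 2.42 without that library. Mpeg1 (2.51 ± 0.54), Fcgr1 (2.11 ± 0.37) and the lysozyme Lyz2 (1.87 ± 0.51) rose. Lyz2 was not called without Mfn2AA heart D and tet-off heart C together, at 1.44 (adjusted p = 0.0854). Cd68 rose by 2.0 ± 0.50, or 1.07 without Mfn2AA heart A. The summed level of the 18 markers ran from 799 to 2309 CPM in Mfn2AA hearts and from 387 to 479 CPM in tet-off hearts. Other genes with high levels in Mfn2AA heart A were the protease Adam8 (5.17 ± 1.37, or 2.87 without it), Clca1 (4.87 ± 1.25, or 3.24) and the galectin Lgals3 (4.36 ± 0.77, or 3.63).

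Complement and acute phase genes rose in 11 of 12 members, with Serpina3n at 4.0 ± 0.73, or 3.10 without Mfn2AA heart D, C4b, which has a near copy in the mouse genome, at 2.81 ± 0.41 and C1qb at 1.79 ± 0.32. Of 17 cytokines and chemokines 8 rose and 1, Cxcl12, fell (-0.66 ± 0.20), a call that was lost without tet-off heart B (adjusted p = 0.0539) and with limma, at -0.28 (adjusted p = 0.206). Ccl8, which draws monocytes, had 1.70, 1.16, 3.04 and 7.10 CPM in Mfn2AA hearts, against 0, 0 and 0 CPM in tet-off hearts. With 0 reads in tet-off hearts, the Ccl8 mean of 3.25 CPM in Mfn2AA hearts was at least 39.3-fold higher than 3 counts over the tet-off group would give, and it was called (adjusted p = 0.00189). Ccl6 rose by 2.74 ± 0.72, or 1.47 without Mfn2AA heart A, its call being lost with the 7 libraries fitted alone (adjusted p = 0.0545), and Lcn2 was not called at 1.99 ± 0.92 (SE, adjusted p = 0.106). Of 24 interferon-stimulated genes 1, Irf7, was called, at 0.87 ± 0.23, and that call was lost without tet-off heart A or tet-off heart B (highest adjusted p = 0.058 over all settings). Lymphocyte and granulocyte markers were scarce, with 7 of 13 tested and sums of 19.6 to 28.8 CPM in Mfn2AA and 8.52 to 10.5 CPM in tet-off hearts.

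Among 42 cell cycle genes 35 rose and 0 fell, with a median of 1.70. Cdk1, the kinase that starts mitosis, had 7.41, 5.63, 9.32 and 2.66 CPM in Mfn2AA hearts, against 0.902, 1.01 and 2.19 CPM in tet-off hearts. The groups did not overlap, although Mfn2AA heart D came close to tet-off heart C, and the log2 fold change was 2.24 ± 0.51 (SE, adjusted p = 0.00306). Its cyclin Ccnb2 had 6.91, 5.66, 7.85 and 1.82 CPM in Mfn2AA hearts, against 0.827, 1.01 and 1.31 CPM in tet-off hearts, at 2.42 ± 0.47 (SE, adjusted p = 0.00103). The DNA topoisomerase Top2a (2.28 ± 0.45), the kinase Aurkb (2.33 ± 0.51), the cyclin Ccna2 (2.26 ± 0.55) and the spindle protein Nusap1 (2.21 ± 0.57) rose too, Nusap1 losing its call without Mfn2AA hearts B and C, at 1.70 (adjusted p = 0.0568). In whole tissue these transcripts do not tell which cells were dividing.

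The promoters of Cdk1 and Ccnb2 are shown since they carry the elements by which such genes are silenced and raised through the cell cycle, TTTGAA (the cell cycle homology region) and CCAAT, either strand, in capitals, from RefSeq on GRCm38.p6.
Cdk1 (chr10:69352863-69353162, minus strand): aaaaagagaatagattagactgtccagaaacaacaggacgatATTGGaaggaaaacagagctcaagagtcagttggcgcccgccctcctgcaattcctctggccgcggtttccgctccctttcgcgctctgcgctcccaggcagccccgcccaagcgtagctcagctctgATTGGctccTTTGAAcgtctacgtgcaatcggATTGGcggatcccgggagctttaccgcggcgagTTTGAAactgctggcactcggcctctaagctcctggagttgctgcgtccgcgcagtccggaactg
Ccnb2 (chr9:70421505-70421804, minus strand): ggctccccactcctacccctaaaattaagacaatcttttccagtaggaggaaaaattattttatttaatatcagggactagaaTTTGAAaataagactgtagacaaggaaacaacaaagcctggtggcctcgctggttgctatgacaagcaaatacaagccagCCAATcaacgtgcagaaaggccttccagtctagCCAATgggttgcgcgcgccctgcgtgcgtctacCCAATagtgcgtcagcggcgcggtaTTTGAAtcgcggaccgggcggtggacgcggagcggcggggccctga
TTTGAA was in 15 of 34 tested members with a promoter sequence (44.1%), in 14 of the 30 called rises among them (46.7%) and in 1258 of 10742 tested genes (11.7%). CCAAT was in 24 of the 34 (70.6%), in 20 of the 30 (66.7%) and in 4074 of the 10742 (37.9%).

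Among 21 genes of cell death 10 rose and 1 fell. Ripk3, the kinase of necroptosis, stood at 1.30 ± 0.29, the TWEAK receptor Tnfrsf12a at 1.41 ± 0.19, and Hrk, which promotes apoptosis, stood at -2.48 ± 0.39. The count of rises was 6 without Mfn2AA heart A, 4 without tet-off heart A and 5 without tet-off heart B. Autophagy genes and lysosome genes parted: 0 of 15 autophagy genes rose and 4 fell, while 12 of 17 lysosome genes rose and 1 fell. The 5 falls numbered 3 without Mfn2AA hearts B and C. Gpnmb, a lysosomal glycoprotein of macrophages, had 24.0, 8.53, 7.16 and 18.5 CPM in Mfn2AA hearts, against 0.977, 0.651 and 1.86 CPM in tet-off hearts, at 3.70 ± 0.59 (SE, adjusted p = 2.12e-04). Cathepsin S, Ctss (2.81 ± 0.43), which macrophages also make, and the sterol carrier Npc2 (1.35 ± 0.20) rose with it. In the cytoskeleton list 9 of 23 rose and 5 fell, where 18.9% of all genes rose and 16.1% fell. The neuronal tubulin Tubb3 stood at 3.48 ± 0.64, Tubb2b, which has a close paralog, at 2.29 ± 0.27, vimentin, Vim, at 1.87 ± 0.25 and the desmosomal Dsg2 at -1.14 ± 0.18. Anxa2 (1.88 ± 0.15) and Pmp22 (1.45 ± 0.11), both membrane proteins, were among the rises of smallest p.

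Of 18 clock genes 5 were higher and 5 lower, where 18.9% of all genes were higher and 16.1% lower. The counts were 3 higher without Mfn2AA heart D and tet-off heart C together and 8 higher and 4 lower with limma. The repressor Per2 had 79.7, 44.2, 31.6 and 68.2 CPM in Mfn2AA hearts, against 12.8, 13.2 and 15.6 CPM in tet-off hearts, and the activator Arntl (BMAL1) had 2.95, 4.10, 3.43 and 2.47 CPM in Mfn2AA hearts, against 9.39, 8.83 and 9.83 CPM in tet-off hearts. Per2 thus stood at 2.01 ± 0.36 (SE, adjusted p = 4.91e-04) and Arntl at -1.52 ± 0.25 (SE, adjusted p = 2.49e-04), with no overlap for either. Npas2, the partner of Arntl, fell with it (-1.29 ± 0.28), as did Nr1d1 (-0.95 ± 0.25), which was not called without Mfn2AA heart D and tet-off heart C together, at -0.63 (adjusted p = 0.102). The time of day at which hearts were taken is not given in the sources used here, and its part in these values was not tested.

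Mfn2AA hearts were also set against the other 5-week groups. These comparisons share the 4 Mfn2AA libraries with the main one, so their values stand beside it and are no separate evidence. Against nontransgenic hearts 32 of 36 complex I genes were lower (median -1.14), and against Mfn2wt hearts 32 (median -0.94). For fatty acid oxidation 31 of 37 were lower against nontransgenic and 30 against Mfn2wt hearts, and for the cell cycle 36 and 34 of 42 were higher. Collagens were higher in 19 of 19 against either group. Pink1 stood at -1.40 ± 0.21 against nontransgenic and -1.30 ± 0.21 against Mfn2wt hearts, and Atp2a2 at -1.78 ± 0.18 against nontransgenic and -1.46 ± 0.18 against Mfn2wt hearts. In the same order, nontransgenic before Mfn2wt, Col1a1 stood at 3.38 ± 0.38 and 3.0 ± 0.37 and Trem2 at 2.99 ± 0.46 and 2.45 ± 0.45. Nppa stood at 5.04 ± 0.46 against nontransgenic and at 2.52 ± 0.41 against Mfn2wt hearts. Atrial transcripts differed between these groups. The mean of the atrial list, as log2 above the tet-off mean, was 0.195 to 1.638 in Mfn2AA and 1.953 to 2.395 in Mfn2wt libraries. In nontransgenic libraries it was -0.021 to 1.439. The part of atrial tissue in the Nppa values was not tested. Among the 36 pathway lists, the integrated stress response alone had medians of opposite sign in these 2 comparisons, 0.71 against nontransgenic and -0.32 against Mfn2wt hearts.

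The same genotypes at P21 differed in far fewer genes. There 78 of 13585 genes (0.574%) were called, 40 higher and 38 lower. The count ran from 11 to 397 when 1 library was left out. The letters of P21 hearts run over their own title numbers. The count was 11 without Mfn2AA heart F or tet-off heart C, 14 without Mfn2AA heart D, 37 without Mfn2AA heart C, 19 without tet-off heart E and 23 without tet-off heart D. It was 397 without tet-off heart A, the P21 tet-off library with the highest transgene signal at 362 FPKM. The P21 Mfn2AA hearts had 1834 to 8051 FPKM of transgene, more than any of the 5-week Mfn2AA hearts. The 2 ages share no library, and their titles carry different age prefixes. The ages are taken here as separate library batches. A test of the change in the Mfn2AA to tet-off difference between the ages called 3822 of 13935 genes (27.4%), which cannot be told apart from batch where batch acts differently on the genotypes.

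**Figure D5:**
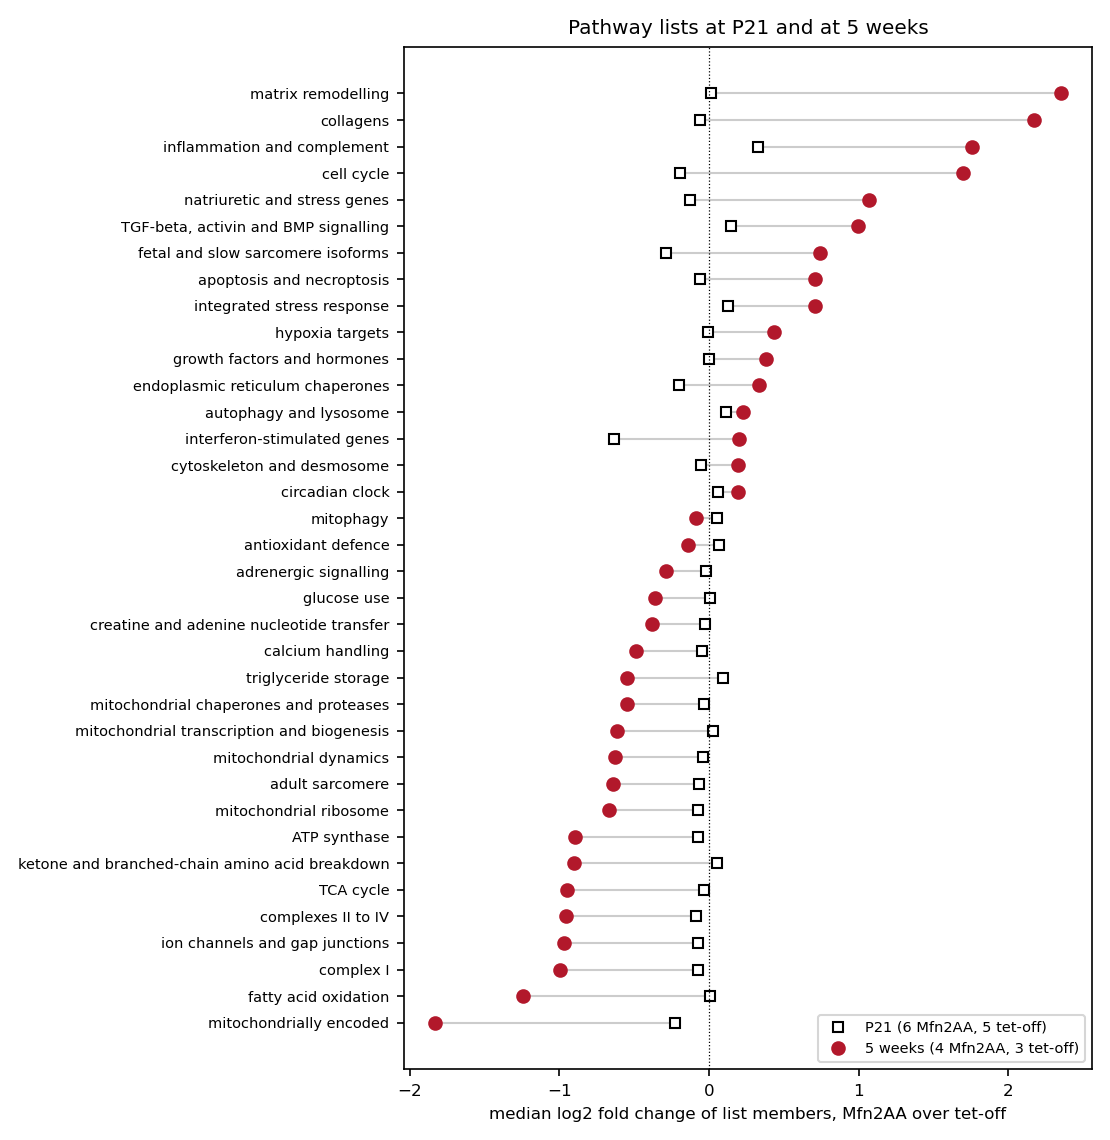
Median log2 fold change of Mfn2AA over tet-off hearts (horizontal axis) of the tested members of 36 pathway lists at 5 weeks (red circles) and at P21 (open squares), ordered by the 5-week median and joined by a grey line. The P21 medians run from -0.63 for interferon-stimulated genes to 0.33 for inflammation and complement, while the 5-week medians run from -1.83 for mitochondrially encoded genes to 2.35 for matrix remodelling.

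Of the lists above, complex I, complexes II to IV, ATP synthase, the TCA cycle, fatty acid oxidation, collagens and matrix remodelling each had 0 members called at P21, with medians between -0.09 and 0.01, and cell cycle had 2 of 41. Pink1 differed by 0.19 ± 0.12 at P21, and its difference changed by -1.72 ± 0.26 (SE, adjusted p = 1.15e-04) from P21 to 5 weeks. For Atp2a2 the P21 difference was -0.12 ± 0.17 and the change -1.47 ± 0.31 (SE, adjusted p = 0.00176). Col1a1 stood at 0.09 ± 0.19 at P21 and changed by 3.10 ± 0.49 (SE, adjusted p = 1.65e-04). None of these 3 was called at P21. The naming rule took most genes by their 5-week values, and the test of change uses the same 5-week libraries. Its results for named genes are thus no separate evidence of a 5-week difference. Of 4638 genes called at 5 weeks and tested at both ages, 3399 passed it, all with the sign of their 5-week difference. In other genes the difference changed between the ages, and so between the batches, as well: Cox7a1 by -1.73 ± 0.26 (SE, adjusted p = 1.22e-04), Eci1 by -1.82 ± 0.23 (SE, adjusted p = 1.95e-05), Acot1 by -3.0 ± 0.48 (SE, adjusted p = 1.84e-04), Kcnv2 by -4.02 ± 0.36 (SE, adjusted p = 2.45e-06), Clcn1 by -4.28 ± 0.63 (SE, adjusted p = 8.21e-05) and Adra1a by -3.01 ± 0.45 (SE, adjusted p = 1.20e-04). The rises that changed were Postn by 4.20 ± 0.78 (SE, adjusted p = 1.00e-03), Cdk1 by 2.30 ± 0.49 (SE, adjusted p = 0.00183), Ccnb2 by 2.67 ± 0.55 (SE, adjusted p = 0.00136) and Mthfd1l by 2.93 ± 0.34 (SE, adjusted p = 1.03e-05). Nppa stood at 0.69 ± 1.29 at P21, with a wide error, and its change of 3.88 ± 2.07 (SE, adjusted p = 0.185) did not pass. Mthfd2 was already at 1.47 ± 0.35 at P21, not called, and its change of 0.52 ± 0.46 (SE, adjusted p = 0.430) did not pass either.

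Of 13348 genes tested at both ages, 39 were called at both, 0.841% of the 5-week calls and 50.6% of the P21 calls, where 34.7% of all these genes were called at 5 weeks. Of the 39, 21 had the same direction. Macrophage genes were among these 21: Trem2 stood at 1.06 ± 0.21 at P21, Mpeg1 at 1.15 ± 0.20, Lyz2 at 1.23 ± 0.23 and Gpnmb at 2.84 ± 0.61. Of the 18 macrophage markers 4 were called at P21, and the Trem2 difference was greater at 5 weeks, by 2.09 ± 0.63 (SE, adjusted p = 0.0191).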

How the data were processed

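Poly(A) RNA of left ventricle was read as single ends without strand information, per the labels' protocols. Reads of a gene and an overlapping or antisense gene therefore cannot be told apart. Reads were aligned to mm10 with Bowtie2 and TopHat2 2.0.10, and gene counts came from HTSeq, per the submitters' processing notes. The deposited FPKM values came from Cufflinks 2.1 with the human cDNA added to the annotation, per the file headers and those notes. The other deposited table used, an annotation, gave gene positions.

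Raw counts were tested with edgeR 4.0.16 (quasi-likelihood F test with robust dispersion, TMM scaling, filter by group) in R 4.3.3, with 1 mean per group in the 15 libraries of the 5-week batch, in the 23 of the P21 batch and, for the change between ages, in the 18 Mfn2AA and tet-off libraries of both. P-values were adjusted by Benjamini-Hochberg over all genes tested. Every adjusted p in the text is edgeR's unless limma is named. Scripts were checked on simulated counts. Alternatives used RLE scaling, no filter, DESeq2 1.42.0, limma 3.58.1 on log2(FPKM + 1) and log2(FPKM + 0.1), other libraries and, after the data were seen, thinned counts, GC content and left-out pairs of libraries. Total counts per library set the sampling noise, and replicates differed by far more than that.

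The 48 gene lists (36 of pathways, 12 of cell types) and the comparison were chosen with earlier results of these data known. A rule took the transgene, Mfn2, Park2, Pink1, up to 6 called and 2 uncalled genes per list, the 12 steepest changes, the 8 most abundant and the 6 of smallest p each way, in all 356 genes, of which 188 are named. A further 20 named genes were picked after their values were seen.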

Additional observations from a re-analysis of the deposited data

Results flagged for a closer look

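In 16 of 209 genes tested, the transgene included, 1 of the 4 Mfn2AA libraries lay far from the other 3. The cutoff gives about 1 in 20 for independent, normally distributed values. CPM of genes picked for their changes need not be so, and that rate is therefore no yardstick here. Mfn2AA heart A was that library in 7 genes. It was high in Ucp2 (1157 CPM, others 205 to 367 CPM), Hmox1 (849.8 CPM, others 19.8 to 43.7 CPM), Cd68 (109 CPM, others 19.3 to 31.0 CPM), Adam8 (155 CPM, others 4.02 to 17.2 CPM) and Igfbp7 (1164 CPM, others 796 to 849 CPM). It was low in Cilp (78.2 CPM, others 277 to 288 CPM) and Canx (159.5 CPM, others 181 to 184 CPM). Mfn2AA heart C was high in Atp5e (257 CPM, others 170 to 176 CPM), mt-Co1 (7769 CPM, others 5172 to 5568 CPM) and Mrps30 (9.58 CPM, others 6.90 to 7.2 CPM), and low in Acvr2b (1.90 CPM, others 3.40 to 3.64 CPM). Mfn2AA heart B was high in Ppargc1b (72.8 CPM, others 50.7 to 54.3 CPM) and low in Myot (3.70 CPM, others 6.71 to 7.16 CPM). Mfn2AA heart D was high in Tnnt3 (26.0 CPM, others 1.63 to 3.18 CPM) and Myl4 (465 CPM, others 12.6 to 58.9 CPM), and low in Myl2 (2294 CPM, others 3139 to 3260 CPM).

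The difference between Mfn2AA and tet-off hearts changed from P21 to 5 weeks in 3822 genes by the interaction test of edgeR. On the log2 scale the change was -1.72 for Pink1, -1.47 for Atp2a2, -3.0 for Acot1, -1.82 for Eci1, -1.73 for Cox7a1, -3.01 for Adra1a, -4.02 for Kcnv2 and -4.28 for Clcn1. It was 2.93 for Mthfd1l, 4.20 for Postn, 3.10 for Col1a1, 2.30 for Cdk1, 2.67 for Ccnb2 and 2.09 for Trem2. Age and library batch are the same split of these libraries. The 5-week libraries by which most of these genes were named are part of the test.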

How the results depend on the processing

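The 4774 calls at 5 weeks became 4781 with RLE scaling, 4575 without a filter, 5053 with DESeq2, 3762 with the 7 libraries alone, 4755 without Rn45s and mitochondrial genes, 3941 without the pair of libraries of highest Myl7, 5399 with a GC offset and 3532 to 4792 with 1 library left out. At an adjusted p of 0.01 they were 3121. Limma on log2(FPKM + 1) gave 4295, 3279 higher and 1016 lower, or 76.3% higher against 54.0% in edgeR, with the median of all genes shifted by 0.187 (log2). With log2(FPKM + 0.1) it gave 4139, 75.4% higher, shifted by 0.228. With either amount added, fewer genes were lower than in edgeR in the mitochondrial ribosome (21 against 54), ATP synthase (10 against 16), adult sarcomere (9 against 16), ketone and branched-chain amino acid breakdown (9 against 16), mitochondrial biogenesis (8 against 13), dynamics (5 against 11), mitophagy (4 against 8), triglyceride storage (5 against 8), mitochondrial chaperones (4 against 8) and antioxidant defence (5 against 9). The replicate block by title number gave 4398 calls, 4077 of them among the 4774. One title number joins Mfn2AA heart A with a nontransgenic heart and another holds the other 3 Mfn2AA and all 3 tet-off hearts, so the block compares these 6 and pairs no single hearts. Park2, at -0.08 and not called, turned positive with limma (0.10 with 1 and 0.16 with 0.1 FPKM added), with the replicate block (0.0020), without Mfn2AA heart A (0.0040; range -0.19 to 0.0040 with 1 library left out) and with the GC offset (0.077).

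Of 201 called genes named in the text, 167 were called in all 19 settings. A further 4 (Bcat1, Cth, Hrk and mt-Co1) were called in the 16 to 18 settings in which they could be tested. The other 30 lost the call in at least 1 setting, 22 of them in a planned setting other than leaving out a library. The P21 count of 78 was 239 with DESeq2, 81 with RLE scaling, 82 without a filter and 11 to 397 with 1 library left out. The count of genes whose difference changed between ages, 3822, was 3790 with RLE scaling, 3501 without a filter, 4104 with DESeq2 and 2884 to 4028 with 1 library left out. The transgene difference of 4.13 was 4.25 with 0.1 FPKM added and 2.87 to 5.50 with 1 library left out. The causes were not tested. The tet-off libraries were the shallower, from 9929934 counts, which limits the scarce genes most.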
